A study of Caenorhabditis elegans with 4 samples.

Results

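The X chromosome of Caenorhabditis elegans was divided by the authors into 18 consecutive bins of 1 Mb, numbered from 0 to 17, and reads were counted on each strand of each bin. All 36 of these X strand-bins were taken, out of 208 strand-bins of the whole genome, by their names alone. A strand-bin is called here by its number and strand, so that bin 2 plus is the plus strand of X from 2000001 to 3000000 (WBcel235). The reads are small RNAs that came down with V5-tagged PRG-1, the Piwi Argonaute that carries piRNAs in the worm germline. Whole adult hermaphrodites grown at 25 °C were lysed, either wild type with tagged PRG-1 or prg-1(∆PAZ-domain), whose tagged PRG-1 lacks the PAZ domain; each genotype had 2 libraries. The PAZ domain is the part of an Argonaute that anchors the 3′ end of its small RNA. Whether the replicates were cultured separately is not stated in the labels. The p-values below therefore reflect the spread between these libraries alone, and that spread may be technical. No untagged precipitate and no input RNA was analysed here.

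The X chromosome is present in a pair of copies in hermaphrodites, and much of it is kept poorly expressed in the germline, whereas it carries many genes used in somatic tissues. It holds few piRNA genes, most of which lie on chromosome IV. It does hold many genes of other small RNAs, among them microRNAs (miRNAs), which are cut from hairpins and act through other Argonautes, and transfer RNAs (tRNAs). In the annotation, X carried 162 of 15363 piRNA genes, 74 of 261 miRNA genes and 276 of 634 tRNA genes, and none of the 22 ribosomal RNA genes. Every X strand-bin held at least 1 piRNA gene, 35 of the 36 held a tRNA gene and 29 held a miRNA gene. A strand-bin holds many genes, so its reads cannot be assigned to a single one. In whole animals, fewer cells of a type and less RNA per cell cannot be told apart.

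The libraries held 6461936 and 8416474 genome-mapped reads in wild type against 7819170 and 14430880 in the mutant, of which X took 161240, 192569, 402446 and 655118. The largest strand-bin of the genome, which starts at 15000001 on chromosome I, plus strand, holds ribosomal RNA genes and took 63.2% and 67.1% of the reads in wild type against 29.6% and 61.2% in mutant replicates 1 and 2. Mutant replicate 1 stood apart in this share. X levels are therefore given per 1000000 genome-mapped reads (RPM) and also per 1000000 reads outside that strand-bin. The second-largest strand-bin, on the minus strand of chromosome I from 6000001, took 27.1% and 20.5% of the reads outside the largest one in wild type against 39.5% and 21.1% in the mutant. The part that these unequal shares have in the X values was not tested, beyond the values given without these strand-bins.

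Of all genome-mapped reads, X took 2.50% and 2.29% in wild type against 5.15% and 4.54% in the mutant. Both mutant libraries lay above both wild type libraries, with a mutant to wild type ratio of 2.03 and a closest pair 1.82-fold apart. The 95% Wilson intervals of these shares reached at most 0.0155 percentage points to either side and cover counting error only. Outside the largest strand-bin, X took 6.78% and 6.95% in wild type against 7.31% and 11.7% in the mutant, a ratio of 1.38. The groups did not overlap there either, but the closest pair was only 1.05-fold apart. Without bin 2 plus they overlapped on this denominator, at 5.22% and 5.28% in wild type against 4.87% and 8.39% in the mutant (exact permutation p = 1.00). With both of the largest strand-bins left out, which was decided after seeing the data, X took 9.30% and 8.75% in wild type against 12.1% and 14.8% in the mutant. Apart from the value without bin 2 plus, the exact two-sided permutation test gave p = 0.333 for each of these differences. That is the smallest value that 2 against 2 libraries allow. After adjustment over 8 chromosome-wide comparisons it was 0.444 for the planned ones.

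A small number of strand-bins carried most of the difference. Each strand-bin's part was its mutant mean minus its wild type mean, as a percentage of that difference over the whole of X. Bin 2 plus carried 38.3% of it, bin 16 minus 19.7%, bin 8 plus 12.1%, bin 13 minus 11.3% and bin 14 minus 7.24%. These 5 strand-bins together carried 88.6%, and the other 31 carried 11.4%. A part also follows the level of a strand-bin, and the 5 already took 55.5% and 51.2% of the X reads in wild type. Bin 13 minus took 15.6% and 12.8% of those reads, more than its part of 11.3%. Its mutant to wild type ratio of 1.81 was under the 2.03 of X as a whole. Of all 36, 27 had a higher mutant mean per genome-mapped read and 9 a lower one. Bin 2 plus came first and bin 16 minus came second whichever single library was left out. Bin 13 minus came ahead of bin 8 plus without wild type replicate 1, at 12.7% against 11.3%. Without mutant replicate 1, bin 13 minus at 9.15% and bin 3 plus at 8.11% both came ahead of bin 8 plus at 7.78%. The 5 together carried 77.5% without mutant replicate 1 and 97.3% without mutant replicate 2. Since they were picked by the size of their difference, their joint values are a description and were not tested.

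**Figure D1:**
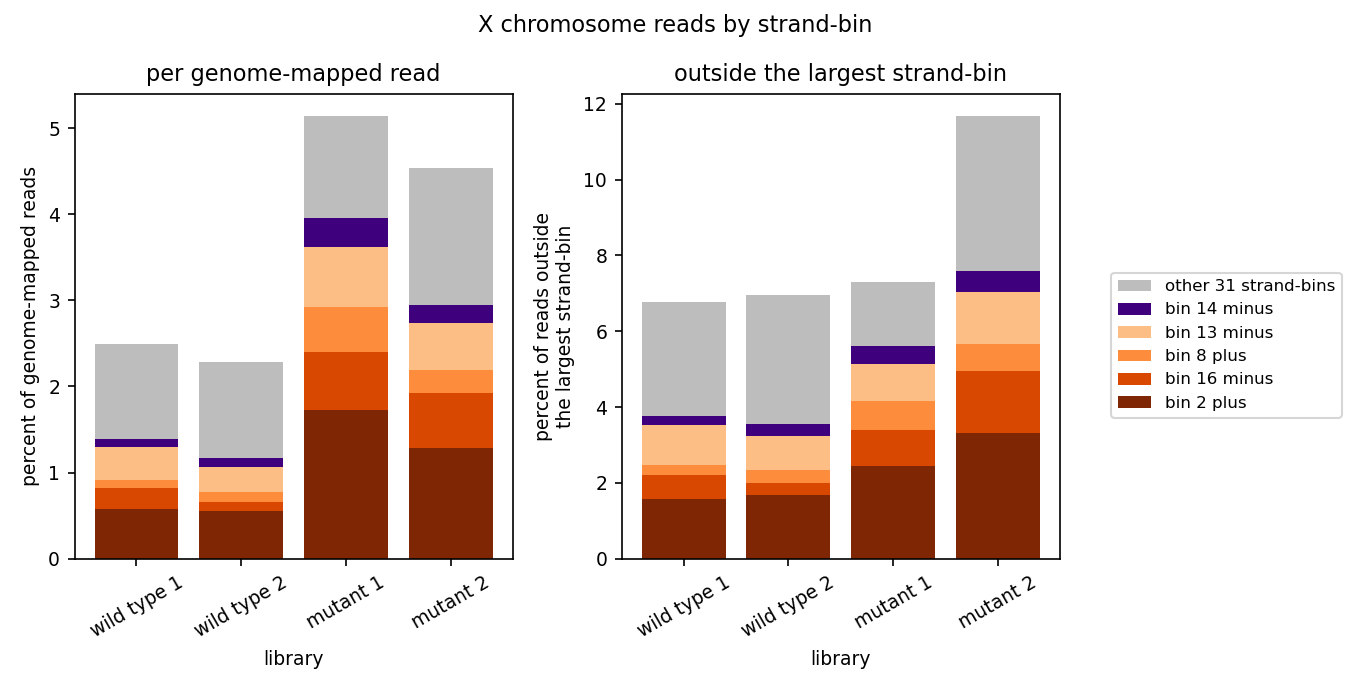
Share of reads that mapped to X in each of the 4 libraries, stacked by strand-bin, as percent of genome-mapped reads (left) and as percent of reads outside the largest strand-bin of the genome (right). The 5 coloured strand-bins average 1.28% of genome-mapped reads in wild type, against 3.45% in the mutant; the grey block of the other 31 averages 1.11% against 1.39%.

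Of the genome-mapped reads, the 5 strand-bins took 1.39% and 1.17% in wild type against 3.96% and 2.94% in the mutant, a ratio of 2.70. The other 31 took 1.11% and 1.12% in wild type against 1.19% and 1.60% in the mutant, a ratio of 1.25. The higher X share of the mutant thus lay mostly in the 5, and the other 31 were set apart from wild type mainly in mutant replicate 2. Of the reads outside the largest strand-bin, the 5 took 3.76% and 3.56% in wild type against 5.62% and 7.58% in the mutant. The other 31 took 3.01% and 3.39% in wild type, between 1.69% in mutant replicate 1 and 4.11% in mutant replicate 2. On that denominator the parts were 47.7% for bin 2 plus, 30.8% for bin 16 minus, 16.1% for bin 8 plus, 8.79% for bin 14 minus and 8.12% for bin 13 minus. They summed to 112%, because the other 31 were lower on average in the mutant, at -11.6%. Without mutant replicate 2 the X difference on this denominator was close to 0 and bin 2 plus alone amounted to 186% of it. Outside both of the largest strand-bins the 5 took 5.17% and 4.48% in wild type against 9.29% and 9.61% in the mutant, so the mutant libraries came close to each other, while the other 31 took 4.13% and 4.27% against 2.79% and 5.21%.

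Bin 2 plus was the strand-bin of X with the most reads in both genotypes. It held 5744 and 5505 RPM in wild type and 17209 and 12830 RPM in the mutant, from 37120 reads in the library with the fewest. Both mutant values exceeded both wild type values, by 2.23-fold for the closest pair. The miRNA genes annotated on this strand are mir-73, mir-74, mir-75, mir-81, mir-264 and mir-8196.1. Of these, mir-81 belongs to the mir-58 family, whose members share their seed with the fly miRNA bantam. The mir-73 and mir-74 genes lie next to each other at 2368765 to 2368863 and 2369043 to 2369139, and mir-81 lies at 2431072 to 2431179. Its log2 fold change of 1.42 ± 0.39 (SE) missed the threshold (edgeR adjusted p = 0.134). So did the value of 0.83 ± 0.45 (SE; edgeR adjusted p = 0.559) outside the largest strand-bin. On this strand of the bin, 4 tRNA genes are annotated.

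Bins 14 minus and 16 minus hold 2 members of the let-7 family, whose miRNAs time the passage from larval to adult fates. The let-7 gene is annotated on the minus strand at 14743590 to 14745321 and mir-84 at 16022404 to 16022478. Bin 16 minus held 2420 and 1089 RPM in wild type and 6748 and 6418 RPM in the mutant. Its wild type replicates were 2.22-fold apart, and its mutant replicates 1.05-fold. Its log2 fold change was 1.91 ± 0.49 (SE; edgeR adjusted p = 0.118), and 1.40 ± 0.51 (SE; edgeR adjusted p = 0.103) outside the largest strand-bin. Bin 14 minus held 840 and 1085 RPM in wild type and 3365 and 2109 RPM in the mutant. Its log2 fold change was 1.51 ± 0.34 (SE; edgeR adjusted p = 0.0930), and 0.87 ± 0.56 (SE; edgeR adjusted p = 0.559) outside the largest strand-bin. In both strand-bins the groups did not overlap under either denominator. The mir-84 gene is the only miRNA gene annotated in bin 16 minus, beside 18 tRNA genes, while bin 14 minus also holds mir-8196.2 and 9 tRNA genes.

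Bin 8 plus held 966 and 1100 RPM in wild type and 5280 and 2703 RPM in the mutant. Its mutant to wild type ratio of 3.87 per genome-mapped read was the largest of the 36. Outside the largest strand-bin its ratio was 2.42, under the 2.64 of bin 16 minus. The one miRNA gene annotated on this strand is mir-237, at 8154084 to 8154182, a member of the lin-4 family, which is known for repressing the larval timing gene lin-14. The strand also holds 25 tRNA genes. Its log2 fold change was 1.95 ± 0.42 (SE; edgeR adjusted p = 0.0928), and 1.28 ± 0.55 (SE; edgeR adjusted p = 0.210) outside the largest strand-bin. The groups did not overlap under either denominator, and outside the largest strand-bin the mutant replicates, at 7499 and 6961 per 1000000, lay close together.

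Bin 13 minus, second to bin 2 plus in wild type, held 3890 and 2938 RPM in wild type and 6984 and 5379 RPM in the mutant. It carries mir-54, mir-55 and mir-56, a cluster between 13144691 and 13145094 whose miRNAs belong to the mir-51 family, needed in embryonic development, and mir-5592.1. Its log2 fold change was 0.86 ± 0.35 (SE; edgeR adjusted p = 0.247). Per read outside the largest strand-bin it was 0.29 ± 0.49 (SE; edgeR adjusted p = 0.698), with values of 10565 and 8928 per 1000000 in wild type against 9919 and 13851 in the mutant. The groups overlapped there, with a mutant to wild type ratio of 1.22, while per genome-mapped read they did not overlap.

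**Figure D2:**
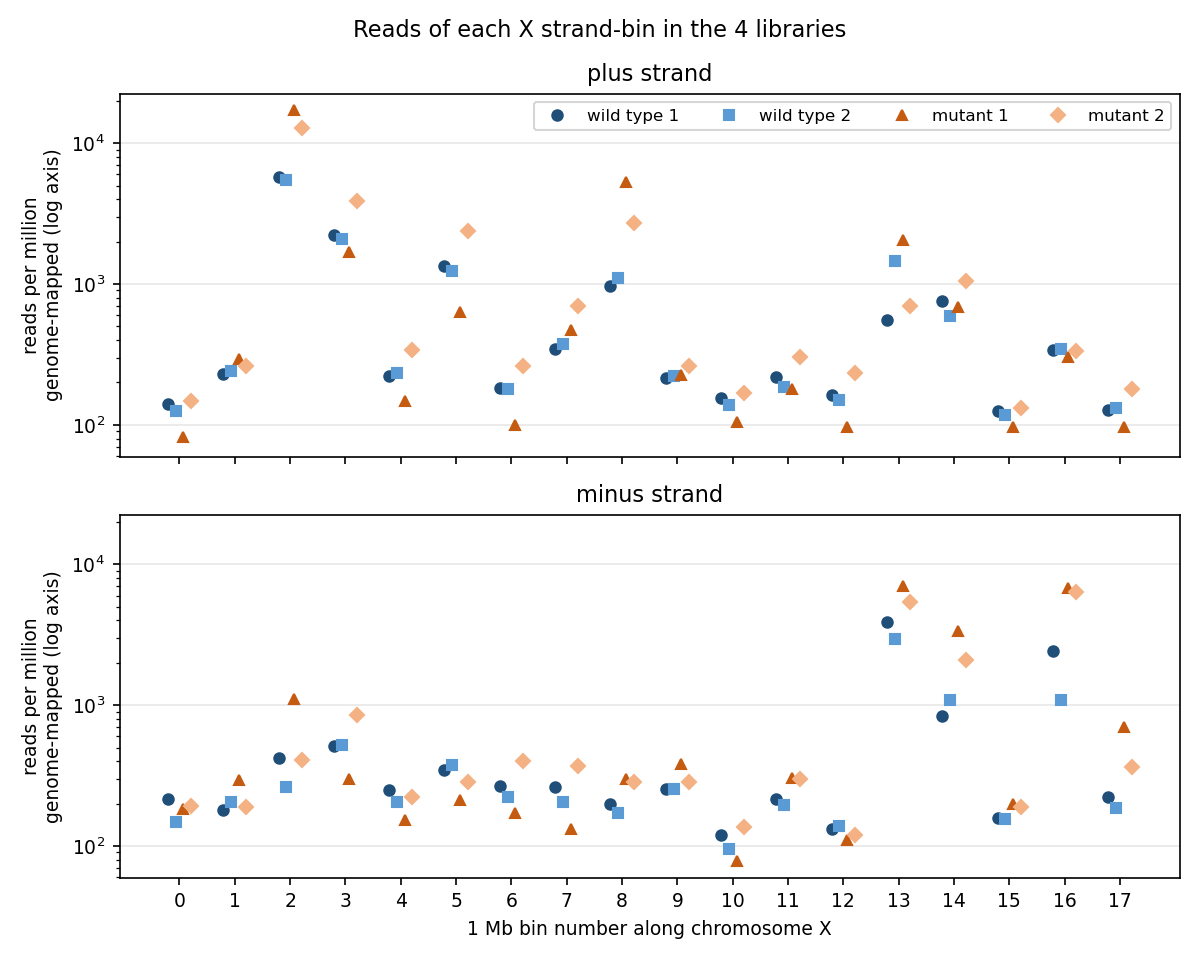
Reads per 1000000 genome-mapped reads of each X strand-bin (log axis) against the 1 Mb bin number, with the plus strand above and the minus strand below; each point is 1 library. Bins 2 and 8 on the plus strand and bins 13, 14 and 16 on the minus strand stand out with both mutant libraries above both wild type libraries.

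The opposite strands of the same bins had lower mutant to wild type ratios per genome-mapped read. Their mean was still higher in the mutant in bins 2 minus, 8 minus, 13 plus and 14 plus. The ratios there were 2.21, 1.58, 1.35 and 1.29. Bin 8 minus, with 26 tRNA genes and 4 miRNA genes, held 198 and 171 RPM in wild type and 299 and 284 RPM in the mutant. Its ratio of 1.58 stood against 3.87 on the plus strand, and its groups did not overlap. Bin 16 plus, with 14 tRNA genes, held 338 and 347 RPM in wild type and 305 and 335 RPM in the mutant, where the groups did not overlap and the mutant was lower. Bin 14 plus held 752 and 594 RPM in wild type and 688 and 1042 RPM in the mutant. Bin 2 minus, which holds mir-82 of the mir-58 family, mir-248 and the stress-related mir-34, held 423 and 260 RPM in wild type and 1104 and 409 RPM in the mutant. The groups overlapped in both of these. Bin 13 plus, with mir-47, mir-392, mir-793 and 18 tRNA genes, held 559 and 1467 RPM in wild type and 2046 and 697 RPM in the mutant. Its replicates differed by 2.63-fold in wild type and 2.94-fold in the mutant, more than the groups did. Strands with many tRNA genes were found at low as well as at high levels. Reads were not assigned to genes, so the part of tRNA reads in these levels was not tested.

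No X strand-bin passed the threshold in the fit across the genome. Scaled to genome-mapped reads, 0 of 36 were higher and 0 were lower (edgeR quasi-likelihood test, adjusted p under 0.05), against 0% of the 208 strand-bins of the genome called higher and 2.4% called lower. At an unadjusted p under 0.05, 8 were higher, against 10.1% of all strand-bins, and 1 was lower, against 13% of all. DESeq2, run as an alternative, called 9 higher, against 11.5% of all, and 1 lower, against 13.9% of all. Its 9 higher strand-bins were the 5 above and bins 7 plus, 8 minus, 11 minus and 17 minus, and the lower one was bin 5 minus. Both mutant values lay above both wild type values in 13 of the 36, against 16.3% of all 208, and below them in 3, against 40.9% of all. The edgeR count rested on the pair of mutant libraries. Without mutant replicate 1 it was 18 higher, against 14.9% of all strand-bins, and 0 lower, against 11.1% of all. Without mutant replicate 2 it was 14 higher, against 16.3% of all, and 12 lower, against 28.8% of all. In both cases the spread came from the wild type libraries alone. With either wild type library left out it was 0 in both directions, against 0% of all. With median-of-ratios size factors it was 7 higher, against 4.81% of all, and 0 lower, against 4.81% of all.

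Outside the largest strand-bin, 0 of 36 were called higher and 0 lower by edgeR, against 0.966% of 207 strand-bins higher and 3.86% lower. At an unadjusted p under 0.05 there were 2 higher, bins 16 minus and 8 plus, against 2.9% of all, and 0 lower, against 6.76% of all. DESeq2 also called 0 higher, against 0.966%, and 0 lower, against 5.8%. The groups did not overlap in 5 strand-bins with the mutant above, against 7.25% of all, and in 7 with the mutant below, against 61.8% of all. Those above were bins 2 plus, 8 plus, 14 minus, 16 minus and 17 minus. With reads outside both of the largest strand-bins as the library size, bins 8 plus and 16 minus were called higher, against 2.91% of 206 strand-bins, and 0 were called lower, against 5.83%. Their log2 fold changes were then 1.44 (edgeR adjusted p = 0.0139) and 1.48 (edgeR adjusted p = 0.00960), and over the alternatives run outside the largest strand-bin the adjusted p ranged from 8.65e-08 to 0.989 for bin 8 plus and from 6.77e-11 to 0.989 for bin 16 minus. The counts moved with the mutant libraries. Without mutant replicate 1, 11 were higher, against 10.6% of 207, and 2 lower, against 18.4%. Without mutant replicate 2, 5 were higher, against 6.28%, and 27 lower, against 86% of all strand-bins, so the lower calls were then spread over the genome. Leaving out wild type replicate 1 gave 0 in both directions, against 0.483% of all in each, and leaving out wild type replicate 2 gave 0 against 0%. Median-of-ratios size factors gave 7 higher, against 4.83%, and 0 lower, against 4.83%. These factors replace the denominator, so this repeats the count per genome-mapped read and is no separate result.

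**Figure D3:**
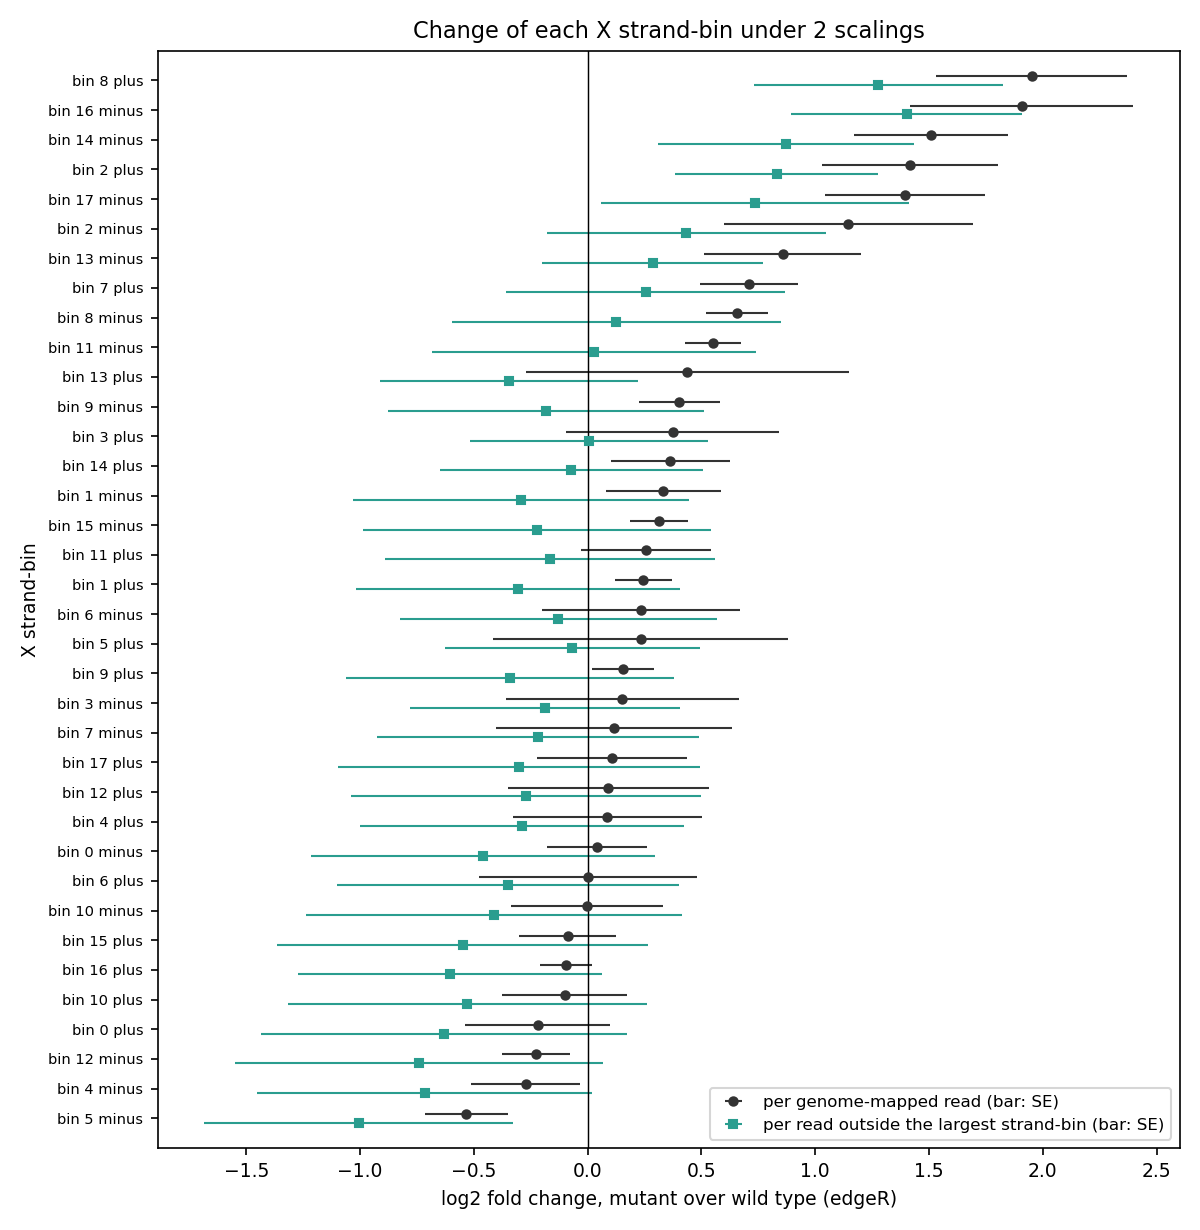
Log2 fold change of each X strand-bin, mutant over wild type, from the edgeR fit across the genome, with its SE as a bar; dots are per genome-mapped read and squares per read outside the largest strand-bin. Bins 8 plus, 16 minus, 14 minus and 2 plus lead under the first scaling, and the second shifts every strand-bin to the left, so that 11 instead of 28 have a value above 0.

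The median log2 fold change of the 36 strand-bins was 0.24 per genome-mapped read, beside -0.09 over all 208 strand-bins and -0.12 over the 102 of chromosomes II, III and V. Per read outside the largest strand-bin the medians were -0.22 for X, -0.60 for all tested and -0.64 for chromosomes II, III and V. The median of all strand-bins thus itself shifted with the denominator, and X stood above it under both. Of the X strand-bins, 28 had an edgeR log2 fold change above 0 per genome-mapped read and 11 outside the largest strand-bin. The sign of the X median rested on single libraries and on the scaling: without mutant replicate 2 it was -0.08 per genome-mapped read, and without mutant replicate 1 it was 0.38 outside the largest strand-bin. With TMM factors on the latter denominator, the median of all strand-bins moved to -0.02 and that of X to 0.31. TMM factors largely replace the denominator, and per genome-mapped read they gave -0.02 and 0.31 as well. These medians are therefore no separate result outside the largest strand-bin. The reads of X relative to those of chromosomes II, III and V together were at a ratio of 0.198 and 0.177 in wild type against 0.286 and 0.337 in the mutant. The groups did not overlap in this ratio, which does not depend on the reads of chromosome I, and the exact two-sided permutation p was 0.333, the smallest possible (0.444 adjusted over 8 comparisons).

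The 29 strand-bins with an annotated miRNA gene held most X reads. All 5 strand-bins picked above for the size of their difference are among them. The higher mutant share of the 29 per genome-mapped read therefore lay largely in those 5. Reads were not assigned to genes, so the part of miRNA reads was not tested. Of the genome-mapped reads, these 29 took 2.35% and 2.15% in wild type against 5.03% and 4.39% in the mutant, a ratio of 2.09. Their groups did not overlap (exact permutation p = 0.333, the smallest possible). The 7 without a miRNA gene took 0.143% and 0.137% in wild type against 0.113% and 0.150% in the mutant, where the groups overlapped (exact permutation p = 1.00). Of the reads outside the largest strand-bin, these 7 took 0.389% and 0.416% in wild type against 0.160% and 0.386% in the mutant, both lower than wild type (exact permutation p = 0.333). The median log2 fold change per genome-mapped read was 0.31 over the 29 and -0.09 over the 7, and on chromosomes II, III and V it was -0.09 over 54 strand-bins with a miRNA gene and -0.16 over 48 without. Per genome-mapped read, 26 of the 29 had an edgeR log2 fold change above 0. Both mutant values lay above both wild type values in 12 of the 29. These counts were 2 and 1 among the 7 without a miRNA gene, and 87 and 34 (16.3%) among all 208 strand-bins. On chromosomes II, III and V they were 25 and 12 of 54 with a miRNA gene, and 9 and 2 of 48 without. Per read outside the largest strand-bin, they were 11 and 5 of the 29 and 0 and 0 of the 7. Among all 207 they were 27 and 15 (7.25%). The median log2 fold change of the 29 was then -0.16, and 18 of them lay below 0. The 29 took 6.39% and 6.54% of those reads in wild type against 7.15% and 11.3% in the mutant, with the closest pair 1.09-fold apart. Bin 1 plus holds 12 miRNA genes, more than any other X strand-bin, and was at 228 and 239 RPM in wild type and 292 and 262 RPM in the mutant. Bin 12 minus holds mir-233 and was at 131 and 140 RPM in wild type and 111 and 120 RPM in the mutant.

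Among the strand-bins of middling level, 4 had values in the mutant that did not overlap wild type and were called by DESeq2; they were singled out after their values were seen. Bin 17 minus, which holds mir-63, was at 222 and 185 RPM in wild type and 706 and 365 RPM in the mutant (log2 fold change 1.40 ± 0.35 SE; edgeR adjusted p = 0.116). Bin 7 plus, which holds mir-240 and mir-786, known from the defecation rhythm, was at 344 and 373 RPM in wild type and 475 and 697 RPM in the mutant. Bins 8 minus and 11 minus had ratios of 1.58 and 1.47, with mutant replicates 1.05-fold and 1.00-fold apart. Bin 11 minus holds mir-254 and mir-239.2. Of these 4, bin 17 minus alone kept its groups apart outside the largest strand-bin, at 602 and 563 per 1000000 in wild type against 1003 and 940 in the mutant.

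Other well-read strand-bins showed no such separation. Bin 3 plus, with mir-359, mir-785, mir-271 and mir-266, held 2228 and 2075 RPM in wild type and 1679 and 3895 RPM in the mutant. Bin 5 plus, with mir-230, mir-360 and mir-791, the last known from carbon dioxide-sensing neurons, held 1333 and 1244 RPM in wild type and 637 and 2391 RPM in the mutant. In both, mutant replicate 1 lay below and mutant replicate 2 above both wild type libraries, 2.32-fold and 3.75-fold apart. Their log2 fold changes were 0.37 and 0.23 per genome-mapped read, and -0.36 and -1.02 without mutant replicate 2. At the low end, bin 5 minus, which has no annotated miRNA gene, held 346 and 379 RPM in wild type and 214 and 286 RPM in the mutant. Its log2 fold change of -0.53 ± 0.18 (SE) was the lowest of the 36 (edgeR adjusted p = 0.199), and outside the largest strand-bin it was -1.01 ± 0.68 (SE; edgeR adjusted p = 0.559). Bin 4 minus, also with no miRNA gene, held 251 and 205 RPM in wild type and 153 and 224 RPM in the mutant.

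The make-up of the X reads differed between the libraries accordingly. The 5 strand-bins took 55.5% and 51.2% of the X reads in wild type against 76.9% and 64.9% in the mutant. Bin 2 plus took 23.0% and 24.1% of the X reads in wild type against 33.4% and 28.3% in the mutant. Bin 16 minus took 9.70% and 4.76% against 13.1% and 14.1%, and bin 8 plus 3.87% and 4.81% against 10.3% and 5.95%. Bin 13 minus took 15.6% and 12.8% in wild type against 13.6% and 11.8% in the mutant, so its share within X overlapped. Bin 3 plus took 8.93% and 9.07% in wild type against 3.26% and 8.58% in the mutant, and bin 5 plus 5.34% and 5.44% against 1.24% and 5.27%. The plus strand took 56.3% and 63.1% of the X reads in wild type against 57.8% and 59.2% in the mutant, where the groups overlapped (exact permutation p = 1.00). Without bin 2 plus the log2 difference in the ratio of plus to minus strand was -0.44 instead of -0.07, and the groups were apart by a narrow margin (exact permutation p = 0.333, the smallest possible). By rank, bin 16 minus went from the fourth place among the 36 in wild type to the second in the mutant, and bin 5 minus from place 11 to place 21.

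**Figure D4:**
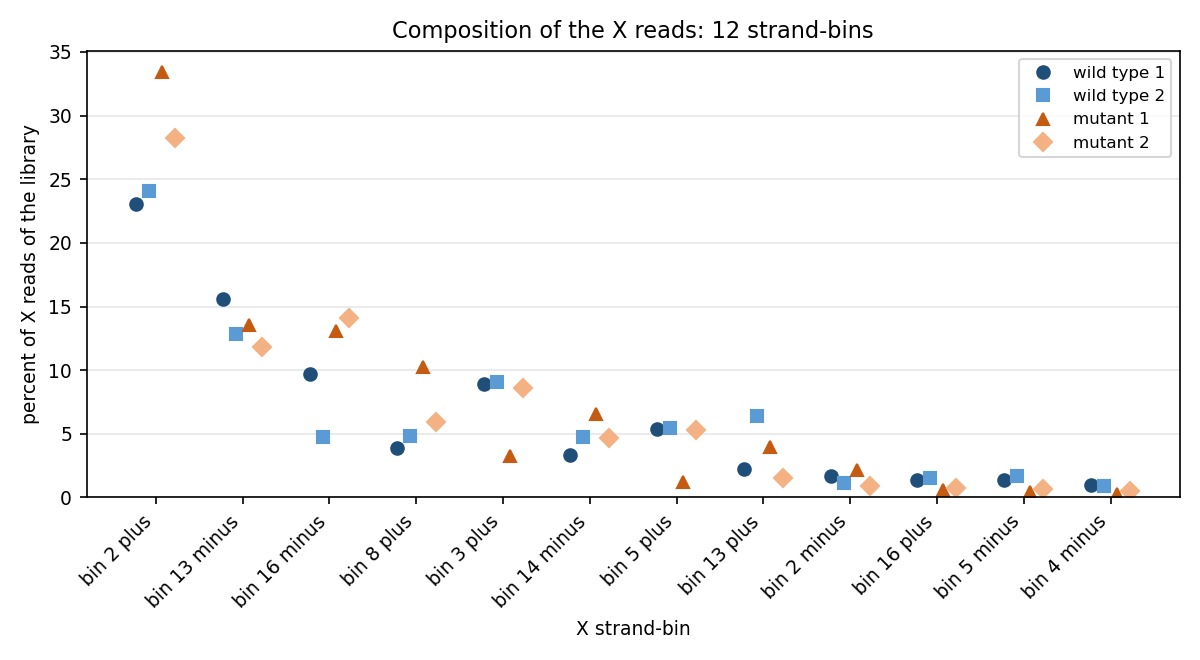
Percent of each library's X reads that fell in each of 12 strand-bins, ordered by their mean level; each point is 1 library. Bins 2 plus and 16 minus lay higher in each mutant library than in either wild type one, and bins 3 plus and 5 plus took a smaller part in mutant replicate 1 than in the other libraries.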

How the data were processed

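The deposited genome table holds unnormalized counts for both strands of each 1 Mb bin of ce11, per the file headers. A second deposited table gives the total and genome-mapped reads of every library; the strand-bins summed to the genome-mapped reads. The aligner was not given in the sources used here, nor was the handling of multi-mapping reads. Hence miRNAs or tRNAs with near-identical copies elsewhere could be counted in another bin. Sense columns were taken as the plus strand: all 36 mitochondrial genes are on the plus strand, where 99.8% to 99.9% of the mitochondrial reads fell. Genes came from the WBcel235 annotation of Ensembl (release 115; WBcel235 is ce11), with miRNA genes named from RefSeq of that assembly; the annotation needed the number of bins in the file on every chromosome. A gene was put in the bin of its lowest coordinate.

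Strand-bins were tested with edgeR 4.0.16 (R 4.3.3; quasi-likelihood test) on all strand-bins of the genome, with library sizes of genome-mapped reads or of reads outside the largest strand-bin, no further scaling, the defaults of filterByExpr and Benjamini-Hochberg adjustment at 0.05. The SE is the log2 fold change divided by the square root of F. The fit was tested on simulated counts with known changes. These had the same spread in all strand-bins and no built-in shift of the largest one between replicates. The fit was not tested under such shifts. DESeq2 1.42.0 was an alternative. Chromosome-wide shares were compared on the log2 scale with exact permutation tests (two-sided, 6 arrangements) in Python 3.11.15 and SciPy 1.17.1. Strand-bins were named by the 8 largest and 3 lowest parts of the X difference, by calls and by the 8 highest levels; bins 7 plus, 8 minus, 11 minus, 17 minus, 14 plus, 1 plus and 12 minus were added after their values were seen. Members, lists and rules were chosen with earlier results of these data known. Libraries with the same replicate number did not deviate together: the correlation of replicate differences across 208 strand-bins was -0.083. This cannot show whether such libraries were prepared together, which the labels do not state. The libraries were treated as unpaired. Each X strand-bin held at least 609 reads in every library; with 2 libraries a group, their number limits the precision.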

Additional observations from a re-analysis of the deposited data

How the results depend on the processing

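The X share was higher in the mutant under each alternative run, at log2 differences of 0.56 to 1.11 per genome-mapped read (0.93 to 1.11 with single libraries left out) and 0.09 to 0.77 outside the largest strand-bin. It was 0.56 without the 3 X strand-bins with the largest parts, and without bin 2 plus the second scaling gave 0.28 with overlapping groups (exact permutation p = 1.00). A replicate block, for libraries not known to share more than a number, leaves the log2 difference per genome-mapped read at 1.02 by construction. That value is therefore no check (exact sign-flip p = 0.5, the smallest possible). The edgeR fit with the block still called 0 X strand-bins. The count called higher per genome-mapped read was 7 with median-of-ratios size factors, 9 with DESeq2 and 0 to 18 with single libraries left out; the count called lower was 1 with DESeq2 and 0 to 12. Outside the largest strand-bin the count called higher was 7 with median-of-ratios size factors, 2 outside the 2 largest strand-bins and 0 to 11 with single libraries left out, and the count called lower was 0 to 27. With single libraries left out, the log2 difference of strand-bins without a miRNA gene ran from -0.31 to 0.10 and that of the ratio of plus to minus strand from -0.28 to 0.13; without bin 2 plus the latter was -0.44. The shares called over all strand-bins in the same fits stand beside these counts in the results above. Median-of-ratios factors replace the denominator, so their count of 7 is no separate result outside the largest strand-bin. The 5 strand-bins with the largest parts kept a log2 fold change above 0 under every alternative run.

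Signs turned for 9 of the 19 named strand-bins. Bin 16 plus was at 0.023 per genome-mapped read and 0.019 outside the largest strand-bin with median-of-ratios size factors. Bin 5 plus was at -0.061 with the replicate block and -1.02 to 0.89 with single libraries left out per genome-mapped read; outside the largest strand-bin it was at 0.29 with TMM, at 0.32 with median-of-ratios factors and -2.03 to 0.73 with single libraries left out. Bin 3 plus was at -0.34 with the replicate block outside the largest strand-bin, and at -0.36 to 0.86 and -1.37 to 0.70 with single libraries left out. Bin 13 plus was at 0.52 (TMM) and 0.58 (median-of-ratios) outside the largest strand-bin, and at -0.54 to 1.30 and -0.92 to 0.63 with single libraries left out. Outside the largest strand-bin, 5 strand-bins named after their values were seen also turned. With single libraries left out, bin 7 plus was at -0.62 to 0.79, bin 8 minus at -0.32 to 0.46, bin 11 minus at -0.46 to 0.39, bin 14 plus at -0.98 to 0.48 and bin 1 plus at -0.70 to 0.0037. There, bin 11 minus was at -0.034 with the replicate block. Bin 14 plus was at 0.43 (TMM) and 0.47 (median-of-ratios), and bin 1 plus at 0.32 (TMM) and 0.36 (median-of-ratios). TMM and median-of-ratios factors largely replace the denominator, so values under them are no separate check outside the largest strand-bin. Without any alternative, between the denominators, bin 14 plus went from 0.36 to -0.07 and bin 1 plus from 0.24 to -0.31. The cause was not tested. With 1 library left in a group, its spread is assumed to be that of the other group. With no filter or a minimum of 100 reads in 2 libraries, the X counts stayed at 0. These settings could change little, because the default filter dropped no strand-bin. Each X strand-bin also held at least 609 reads in every library.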
